A study of Mus musculus with 18 samples.

Results

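Chromatin accessibility was examined at the genes of 8 dual-specificity phosphatases that restrain MAP kinases, Dusp1, Dusp2, Dusp4, Dusp5, Dusp6, Dusp8, Dusp10 and Dusp16. A peak belonged to a gene if it overlapped the gene body extended by 25 kb on each side (GENCODE M1 annotation, mm9). This rule used position alone and gave 181 peaks of the 194284 in the deposited union table, of which 30 were in the promoter table and 151 in the distal table. Dusp16, the longest gene at 77156 bp, held 60 of them, and the others held 18 (Dusp1), 20 (Dusp2), 15 (Dusp4), 19 (Dusp5), 15 (Dusp6), 14 (Dusp8) and 20 (Dusp10). No window overlapped another, but some held other genes as well: Adra2b and Astl in the Dusp2 window, Tnks in that of Dusp4, Mob2 in that of Dusp8, 1700056E22Rik in that of Dusp10 and Loh12cr1 in that of Dusp16.

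ATAC-seq, which counts the sites that a transposase can reach in open chromatin, was performed in bone marrow-derived macrophages (BMDMs) grown from 3 adult male Il10-/- mice of the C57BL/6J background. Every group, controls included, lacked a functional Il10 gene. There were 6 groups of 3 libraries: unstimulated, (+)-JQ1 alone (500 nM), IL-10 alone (10 ng/mL), LPS (50 ng/mL), LPS + (+)-JQ1 and LPS + IL-10. Pretreatment lasted 12 hours, LPS or PBS was then added for 4 hours, and cells were collected at 16 hours. (+)-JQ1 blocks the bromodomains with which BET proteins bind acetylated histones, LPS is the bacterial ligand of Toll-like receptor signaling, and IL-10 is an anti-inflammatory cytokine that signals mainly through STAT factors.

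MAP kinases of the ERK, JNK and p38 families carry the signal from Toll-like receptors to cytokine genes. Dual-specificity phosphatases end this signal by removing phosphate from both the threonine and the tyrosine of the kinase's activation loop. Dusp1, Dusp2, Dusp4 and Dusp5 are inducible enzymes of the nucleus, Dusp6 is a cytoplasmic enzyme selective for ERK, and Dusp8, Dusp10 and Dusp16 act mainly on JNK and p38. In macrophages Dusp1 is known for limiting cytokine production after LPS.

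Libraries held between 12020526 and 25908198 counts in peaks. A member peak had a median of 40 counts per library (1 to 1963), so that changes of weak peaks were measured with little precision. Levels are CPM, the counts of a peak scaled by library size and by TMM (trimmed mean of M-values), with SD over n = 3 libraries. Unstimulated replicates 1 and 2 had the highest TMM scaling factors, 1.24 and 1.15, against 1.04 for replicate 3 and 0.896 to 1.05 in the other groups. Of the unstimulated counts 40.8%, 42.8% and 45.5% lay in promoter-class peaks, the first below the 42.4% to 51.1% of the other groups. All 8 macrophage markers, such as Csf1r and Mertk, had a promoter-class peak, with median levels between 6.78 and 35.8 CPM. Of the markers of other cells, Cd3e and Cd3g of T cells, Ly6g and Mpo of neutrophils and Col1a2 and Col3a1 of fibroblasts had none. Others did have one, with median levels of 29.3 CPM at Elane and 14.1 CPM at S100a8 of neutrophils, 14.7 CPM at Col1a1 of fibroblasts and 6.52 CPM at Lck of T cells. All 4 dendritic cell markers had one, at 0.826 to 31.1 CPM, the highest being Zbtb46.

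A region was called when its Benjamini-Hochberg FDR in edgeR's quasi-likelihood test over all 194230 tested peaks was under 0.05 and its log2 fold-change exceeded 0.5 in size. All 181 member peaks were tested. In bulk samples, a smaller share of cells with an open region and a weaker opening in each cell cannot be told apart. An exact permutation test of 3 against 3 libraries cannot give a p below 0.1.

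Each run below shows, for a region named in the results, the match nearest to the middle of the peak for a motif chosen from 3. These were STAT (TTCNNNGAA), bound by factors downstream of IL-10, AP-1 (TGANTCA), bound by factors downstream of MAP kinases, and kappaB, bound by NF-kappaB. Capitals mark matches of the named motif on either strand, and matches of other motifs are not marked. All runs are read from mm9 on the plus strand, lie outside annotated exons, and extend 40 bases on each side of the match.
Dusp16, STAT, in the peak with the smallest FDR for LPS + IL-10 against LPS, chr6:134661435-134661523: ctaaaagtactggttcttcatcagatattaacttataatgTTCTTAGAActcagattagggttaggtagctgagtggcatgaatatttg
Dusp16, STAT, in the peak with the smallest FDR for LPS + (+)-JQ1 against LPS, chr6:134665142-134665230: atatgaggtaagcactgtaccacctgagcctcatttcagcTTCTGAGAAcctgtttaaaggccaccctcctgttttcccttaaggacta
Dusp1, STAT, in the peak with the smallest FDR for LPS + IL-10 against LPS, chr17:26637166-26637254: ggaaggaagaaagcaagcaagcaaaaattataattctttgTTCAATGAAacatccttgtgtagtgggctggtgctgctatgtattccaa
Dusp2, AP-1, in the upstream peak that fell with (+)-JQ1, chr2:127149407-127149493: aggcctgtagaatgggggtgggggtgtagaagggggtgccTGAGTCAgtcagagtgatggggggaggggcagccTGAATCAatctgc
Dusp2, kappaB, in the same peak, chr2:127148562-127148651: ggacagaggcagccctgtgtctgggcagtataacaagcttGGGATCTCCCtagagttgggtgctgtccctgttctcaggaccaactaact
Dusp2, STAT, in the promoter peak, chr2:127161441-127161529: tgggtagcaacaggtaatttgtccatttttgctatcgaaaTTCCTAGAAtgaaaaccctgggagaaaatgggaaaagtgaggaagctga
Dusp5, kappaB, in the peak with the smallest FDR for LPS, chr19:53641789-53641878: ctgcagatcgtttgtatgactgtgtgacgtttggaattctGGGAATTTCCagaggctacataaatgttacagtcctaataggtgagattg
The STAT matches of Dusp16 lay 619 and 169 bases from the middle of their peaks, and that of Dusp1 lay 223 bases from it. At Dusp2 the kappaB match lay 746 bases from the middle of its peak, and the STAT match of the promoter peak lay 635 bases from it. These Dusp2 matches and the first Dusp16 match lie outside the middle 500 bp counted below. The second Dusp16 peak held 5 STAT matches over its length, and the upstream Dusp2 peak held 4 AP-1 matches. In its middle 500 bp the first Dusp16 peak held an ISRE-like match (GAAANNGAA) but no STAT match. The Dusp5 peak held a STAT match there besides its kappaB match. It was not called for LPS + IL-10 against LPS (log2 fold-change 0.05).

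Such short motifs are common. In the middle 500 bp, a STAT match was found in 18.8% of member peaks and 14.3% of all peaks, an AP-1 match in 17.1% and 18.1%, and a kappaB match in 7.18% and 5.69%. By gene, 9 of the 19 Dusp5 peaks held a STAT match, and 19 of the 60 Dusp16 peaks held an ISRE-like match (GAAANNGAA), which 16.3% of all peaks held. CRE (TGACGTCA) was in the middle 500 bp of no member peak and of 0.532% of all peaks. Of the 31 member peaks higher with LPS + IL-10 than with LPS, 7 held a STAT match and 11 an ISRE-like match. The median GC content of this stretch was 47% in member peaks and 46.6% in all peaks, with 42.8% at Dusp16 and 53% at Dusp2.

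The effect of LPS was compared first. LPS raised accessibility at 40 of the 181 peaks and lowered it at 11, with a median log2 fold-change of 0.20. Over all tested peaks 11.7% were called higher and 10.2% lower, with a median of -0.03. Of the 40 higher peaks 13 belonged to Dusp2 and 18 to Dusp16. Dusp10 had 5 and Dusp4 had 3 of the 11 lower peaks.

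**Figure D1:**
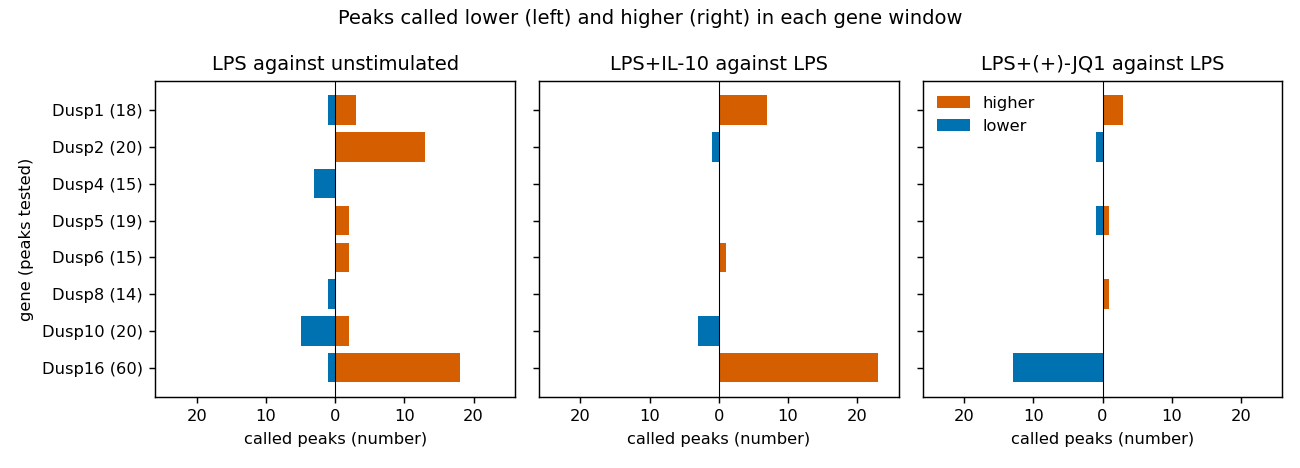
Number of called peaks in the window of each gene (peaks tested in parentheses), higher to the right and lower to the left of 0, in 3 comparisons. Dusp2 and Dusp16 held most calls with LPS, and Dusp16 held 23 of the 31 higher calls with LPS + IL-10 and 13 of the 15 lower calls with LPS + (+)-JQ1.

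Dusp2 opened most with LPS. This nuclear phosphatase is induced in activated immune cells. The called peaks lay on both sides of the gene: 7 of the 9 upstream, both peaks over the gene body, and 4 of the 9 beyond its 3′ end, where the window runs into Astl. The promoter peak (chr2:127161369-127162872), which covers the TSS, had levels of 29.6, 35.7 and 44.5 CPM in the unstimulated libraries and 90.2, 77.5 and 79.1 CPM with LPS. Every LPS library was above every unstimulated library, and the log2 fold-change was 1.17 ± 0.14 (SE, FDR 1.2e-11).

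The strongest change by FDR was at chr2:127164485-127168305, a promoter-class peak over the annotated start of Astl and 4.5 kb from the Dusp2 TSS. Its levels were 8.3, 12.1 and 11.7 CPM unstimulated and 64, 61.2 and 66.4 CPM with LPS. The log2 fold-change was 2.57 ± 0.15 (FDR 8.2e-28), and the groups did not overlap. At chr2:127148119-127150585, an intergenic peak 12.5 kb upstream of the TSS, the levels were 7.56, 7.86 and 6.19 CPM unstimulated and 29.6, 24 and 26.2 CPM with LPS. This was a log2 fold-change of 1.89 ± 0.16 (FDR 4.4e-19).

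Summed over its 20 peaks, the Dusp2 window held 98.3 ± 4.34 CPM without stimulation and 263 ± 9.61 CPM with LPS, a ratio of 2.68. The groups did not overlap, and the exact permutation p (two-sided) was 0.1, the smallest possible. The Dusp16 window rose from 165 ± 7.91 to 259 ± 5.97 CPM, a ratio of 1.57, also without overlap. The 6 other windows changed by ratios between 0.92 and 1.28, and only that of Dusp5 did so without overlap of the groups. The share of windows elsewhere that separate in this way was not examined, here or in the comparisons below.

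Dusp16 encodes a phosphatase with a preference for JNK. At its promoter peak (chr6:134741991-134743305) the levels were 19.7, 26.5 and 32.4 CPM unstimulated and 47.3, 37.4 and 39.5 CPM with LPS, which did not overlap. The log2 fold-change was 0.66 ± 0.14 (FDR 1.4e-04). The smallest FDR with LPS was at chr6:134650240-134651335 (log2 fold-change 1.16 ± 0.14, FDR 3.9e-11), a promoter-class peak in an intron of Loh12cr1. Against unstimulated cells these peaks were also higher with (+)-JQ1 alone (log2 fold-change 0.76 and 0.74). With IL-10 alone the values were 0.50, not called, and 0.75. Promoter-class counts made up 40.8% to 45.5% of the unstimulated libraries and 45.2% to 47% of the LPS libraries. Their part in the promoter-class values with LPS was not tested. Of the 43 peaks over the Dusp16 gene body 11 rose and none fell by this rule.

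The other members had between 1 and 7 called peaks each with LPS. Dusp5, an ERK-specific nuclear phosphatase, rose at 2 of 19 peaks. Its lead region, chr19:53640241-53642941, lay 38 kb downstream and rose from 12.7 ± 1.89 to 24 ± 3.8 CPM (log2 fold-change 0.92 ± 0.14, FDR 1.7e-07). Dusp6 rose at 2 of 15 peaks, with a lead log2 fold-change of 0.59 ± 0.15 (FDR 0.0012) at chr10:98703258-98705241. At Dusp1 3 of 18 peaks rose and 1 fell.

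Dusp4, a nuclear phosphatase of ERK and JNK, rose at no peak and fell at 3 of 15. The lead region, chr8:35892744-35894251, overlaps an exon of Tnks and fell by 1.09 ± 0.27 on the log2 scale (FDR 0.0010), from 3.36 ± 0.639 to 1.59 ± 0.185 CPM. Dusp10 fell at 5 of 20 peaks and rose at 2, one of which was the intronic peak chr1:185872607-185873423 (log2 fold-change 0.79 ± 0.18, FDR 5.0e-04). Dusp8 fell at 1 of 14, a weak intergenic peak of 2.5 ± 0.454 CPM unstimulated. Scaling by total counts in place of TMM gave 26 higher and 27 lower member peaks with LPS, and it moved the median of all peaks from -0.03 to -0.26. The number of lower peaks was 7 without unstimulated replicate 2, 6 without LPS replicate 1 and 4 without LPS replicate 2.

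The response to IL-10 in the presence of LPS was then compared with LPS alone. Accessibility was higher at 31 of the 181 peaks and lower at 4, where 4.26% and 4.51% of all tested peaks were called. The median log2 fold-change was 0.19, against -0.01 over all peaks. Dusp16 held 23 of the higher peaks and Dusp1 held 7. Without Dusp16, 8 of 121 peaks were higher (6.61%) and 4 were lower (3.31%), with a median of 0.00. Over the 181 peaks, 20 were higher without LPS replicate 1 and 19 without LPS + IL-10 replicate 1.

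The Dusp16 peaks higher with LPS + IL-10 were 17 of the 43 peaks over the gene body, 4 of the 9 beyond its 3′ end and 2 of the 8 upstream. Among the 21 peaks within 25 kb of the TSS, 2 were called higher. Of the 60 peaks 57 had a positive log2 fold-change. The promoter peak was among the exceptions, with levels of 41.4 ± 5.23 CPM with LPS and 35.2 ± 2.36 CPM with LPS + IL-10 (log2 fold-change -0.24, 95% interval -0.51 to 0.04, FDR 0.31).

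**Figure D2:**
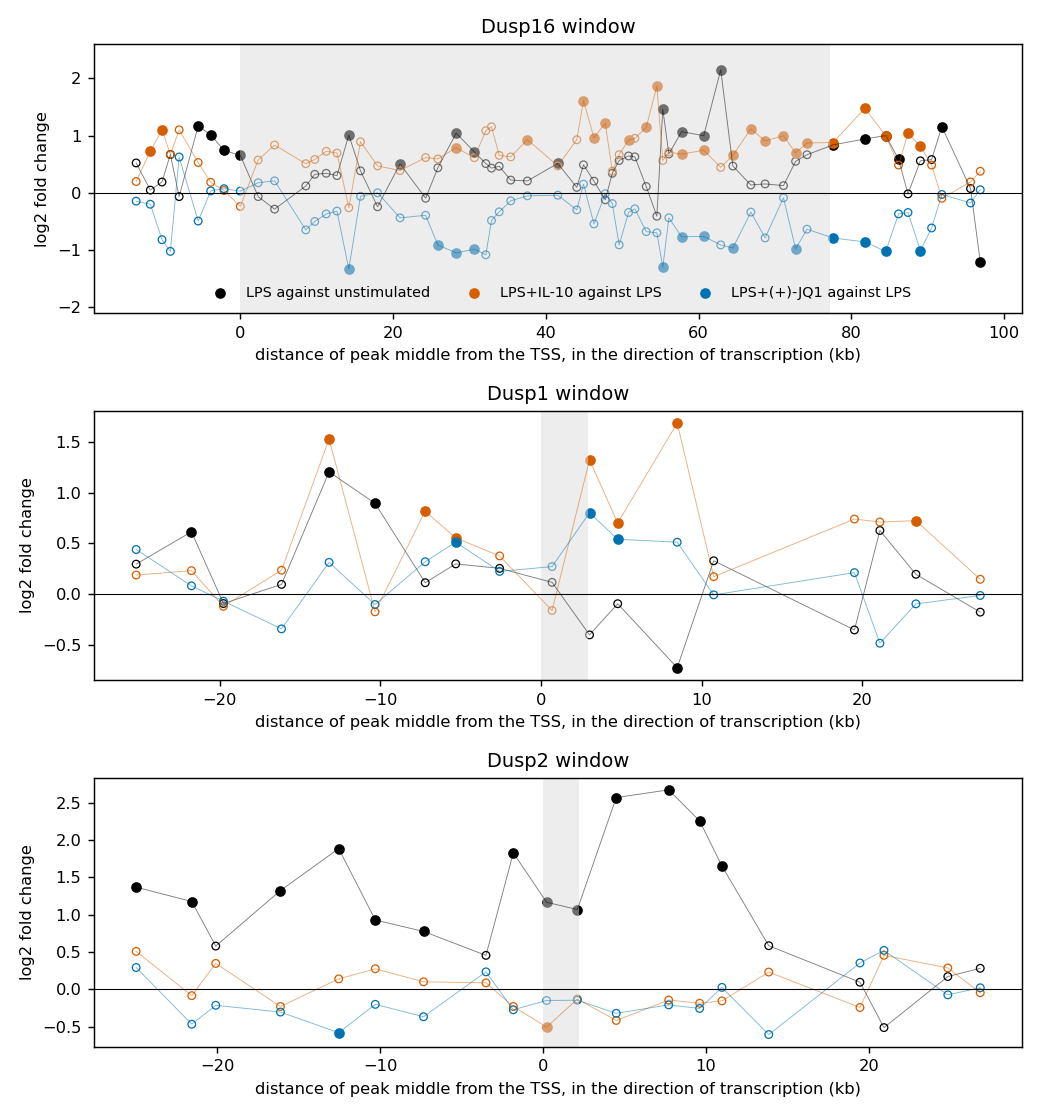
Log2 fold-change of each peak (vertical) by the distance of its middle from the TSS in kb (horizontal, in the direction of transcription) in the windows of Dusp16, Dusp1 and Dusp2. Filled points are called, open points are not, and the gene body is shaded. At Dusp16 most peaks lie above 0 with LPS + IL-10 and below 0 with LPS + (+)-JQ1, and at Dusp2 the called peaks are almost all those of LPS against unstimulated.

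The smallest FDR at Dusp16 was at chr6:134659290-134662430, 81.8 kb from the TSS and past the 3′ end of Dusp16, where it overlaps the last part of Loh12cr1. Its levels were 3.41, 4.18 and 4.82 CPM unstimulated, 7.58, 9.04 and 7.35 CPM with LPS, and 25.9, 22.8 and 18.4 CPM with LPS + IL-10. IL-10 alone gave 6.74, 5.74 and 4.18 CPM. The libraries of LPS + IL-10 stood above all others, with a log2 fold-change over LPS of 1.48 ± 0.15 (FDR 5.2e-13). It ranked 177 of the 194230 tested peaks.

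At the neighbouring chr6:134662468-134667567, which covers the 3′ end of Dusp16, LPS gave 13, 12.8 and 12.2 CPM and LPS + IL-10 gave 27.7, 21 and 21.3 CPM. The log2 fold-change was 0.88 ± 0.15 (FDR 2.9e-06). The whole Dusp16 window held 264, 261 and 252 CPM with LPS and 398, 350 and 334 CPM with LPS + IL-10, a ratio of 1.39 without overlap (exact permutation p = 0.1). Leaving out LPS + IL-10 replicate 1 reduced the number of higher Dusp16 peaks from 23 to 12, and leaving out LPS replicate 1 reduced it to 15.

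At Dusp1 the 7 higher peaks were 3 of the 9 upstream, 1 of the 2 over the gene body and 3 of the 7 beyond its 3′ end. At chr17:26635508-26638466, an intergenic peak 8.48 kb from the TSS, the levels were 5.69, 10 and 10.6 CPM unstimulated, 4.92, 5.29 and 5.85 CPM with LPS, and 18.1, 14.9 and 18.6 CPM with LPS + IL-10. LPS alone lowered it (log2 fold-change -0.73 ± 0.18, FDR 9.7e-04), and LPS + IL-10 stood 1.69 ± 0.17 above LPS (FDR 1.2e-13). IL-10 alone gave 6.98, 10 and 8.5 CPM, within the range of the unstimulated libraries.

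At chr17:26641679-26643213, over the 3′ end of Dusp1, LPS gave 5.7, 5.99 and 6.81 CPM and LPS + IL-10 gave 16, 13.4 and 16.8 CPM. The log2 fold-change was 1.33 ± 0.16 (FDR 3.7e-10). The Dusp1 promoter-class peak (chr17:26644295-26645264), whose edge lies 200 bp inside the gene from the annotated TSS, did not pass the test (31.2 ± 1.25 and 27.9 ± 1.32 CPM, FDR 0.53).

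**Figure D3:**
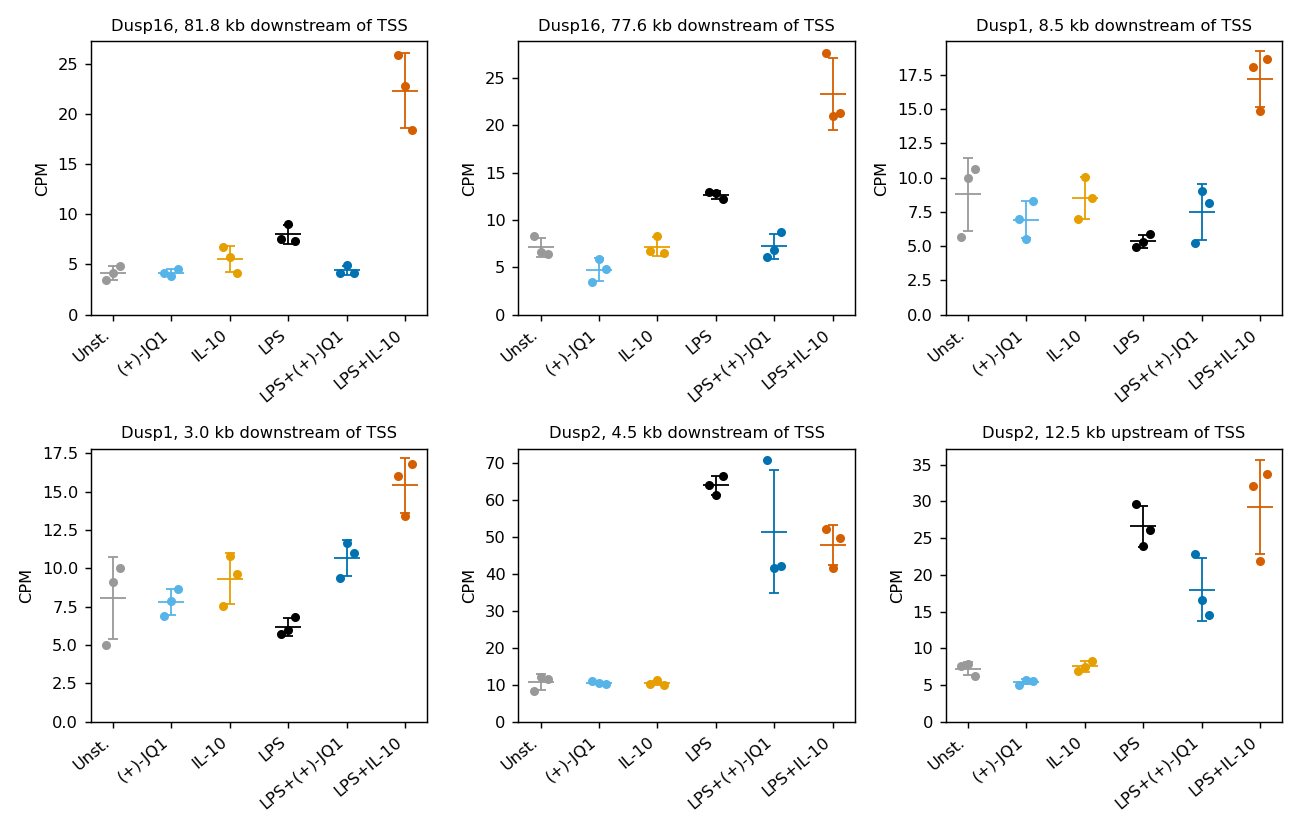
CPM of 6 regions in the 6 groups, with 1 point per library and the mean ± SD (bars, n = 3). Both Dusp16 regions and both Dusp1 regions were highest in the LPS + IL-10 libraries, and both Dusp2 regions were high in all LPS groups.

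The remaining higher peak was an intergenic one of Dusp6, chr10:98709154-98710977, with 5.94 ± 0.839 CPM with LPS and 8.87 ± 1.15 CPM with LPS + IL-10 (log2 fold-change 0.58 ± 0.17, FDR 0.012). The 4 lower peaks lay at Dusp10, with 3, and at Dusp2, with 1. At Dusp10 the promoter-class peak (chr1:185857688-185858849), at an internal annotated start 21.1 kb into the gene, gave 76.5, 64.6 and 64 CPM with LPS and 49.7, 50.6 and 41.5 CPM with LPS + IL-10 (log2 fold-change -0.53 ± 0.14, FDR 0.0056). The Dusp2 promoter peak gave 61.8, 59.4 and 52.7 CPM with LPS + IL-10, below every LPS library and above every unstimulated one (-0.51 ± 0.13 against LPS, FDR 0.0062). The whole Dusp10 window held 118.9 ± 7.44 CPM with LPS and 94.6 ± 8.64 CPM with LPS + IL-10, a ratio of 0.79 without overlap. Without LPS replicate 1, LPS replicate 3 or LPS + IL-10 replicate 3, 2 peaks were lower. Counts in promoter-class peaks made up 42.4% to 43.8% of the LPS + IL-10 libraries and 45.2% to 47% of the LPS libraries, and their part in these lower promoter values was not tested.

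The effect of (+)-JQ1 in the presence of LPS differed between members. Accessibility was lower than with LPS alone at 15 peaks and higher at 5, where 3.49% and 1.74% of all tested peaks were called. Of the 15 lower peaks 13 belonged to Dusp16, 1 to Dusp2 and 1 to Dusp5. Of the 5 higher peaks 3 belonged to Dusp1. Without Dusp16, 2 of 121 peaks were lower (1.65%). Over the 181 peaks, 6 were lower without LPS + (+)-JQ1 replicate 3 and 9 without LPS replicate 1, and 3 were higher without LPS + (+)-JQ1 replicate 2.

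At Dusp16 the lower peaks were 10 of the 43 over the gene body and 3 of the 9 beyond its 3′ end, with none of the 8 upstream. At chr6:134662468-134667567 LPS + (+)-JQ1 gave 6.14, 6.82 and 8.72 CPM, against 13, 12.8 and 12.2 CPM with LPS and 8.3, 6.65 and 6.41 CPM unstimulated. The log2 fold-change against LPS was -0.79 ± 0.16 (FDR 2.0e-04). At chr6:134659290-134662430 it was -0.86 ± 0.17 (FDR 2.7e-04), with 4.14, 4.91 and 4.19 CPM. In both regions every LPS + (+)-JQ1 library was below every LPS library. At the promoter peak the levels were 42.4 ± 4.3 and 41.4 ± 5.23 CPM, a log2 difference of 0.03 (95% interval -0.24 to 0.30). The number of lower Dusp16 peaks was 6 in place of 13 without LPS + (+)-JQ1 replicate 3.

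At Dusp2 the peak lower with (+)-JQ1 was the upstream region chr2:127148119-127150585, with 22.9, 16.5 and 14.6 CPM against 29.6, 24 and 26.2 CPM with LPS (log2 fold-change -0.58 ± 0.14, FDR 0.0044). The promoter peak did not pass the test (74.3 ± 9.96 against 82.3 ± 6.91 CPM, FDR 0.63). The Dusp2 window was uneven between replicates, with 277, 208 and 196 CPM for LPS + (+)-JQ1, of which the first was above all 3 LPS libraries (273, 254 and 263 CPM). The windows of Dusp1 (ratio 1.23), Dusp4 (1.22) and Dusp6 (1.19) were higher than with LPS, without overlap of the groups (exact permutation p = 0.1 each). That of Dusp16 was lower (ratio 0.84), also without overlap (exact permutation p = 0.1). How often windows elsewhere separate in this way was not examined.

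At Dusp1 the region over the 3′ end, chr17:26641679-26643213, rose with (+)-JQ1 as it did with IL-10, to 9.36, 11.7 and 11 CPM (log2 fold-change 0.80 ± 0.17, FDR 3.8e-04). These comparisons share the LPS libraries. At Dusp5 chr19:53638536-53640167 rose from 6 ± 0.237 to 9.95 ± 0.595 CPM (0.72 ± 0.16, FDR 8.1e-04), and at Dusp8 chr7:149254344-149255977 from 11.8 ± 1.14 to 18 ± 2.15 CPM (0.60 ± 0.14, FDR 0.0033). Both regions were intergenic. No peak of Dusp4, Dusp6 or Dusp10 was called.

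LPS + (+)-JQ1 and LPS + IL-10 were also compared directly. Of the 181 peaks 48 were lower with (+)-JQ1 and 5 were higher, where 4.68% and 3.43% of all tested peaks were called. Dusp16 held 42 of the lower peaks, 70% of its 60, with a median log2 fold-change of -1.19. Its summed window held 216 ± 14 CPM with (+)-JQ1 and 361 ± 33.5 CPM with IL-10. At chr6:134659290-134662430 the log2 difference was -2.33 ± 0.17 (FDR 5.0e-22), which ranked 22 among all tested peaks. Of the others, Dusp1 had 5 lower peaks, Dusp2 had 1 and Dusp10 had 3 higher ones. Outside Dusp16 6 of 121 peaks were lower (4.96%). The number of higher peaks was 1 without LPS + (+)-JQ1 replicate 2 and 2 without LPS + IL-10 replicate 3.

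Without LPS, (+)-JQ1 raised 16 member peaks (8.84%) and lowered 12 (6.63%), where 7.85% and 3.15% of all tested peaks were called. The share of higher peaks was near the background. The 7 calls among the 30 promoter-class members were all higher, where 22.9% of all promoter-class peaks were called higher and 2.15% lower, so that this share was near that of the class. At the promoter peaks the log2 fold-changes were 0.76 ± 0.14 (Dusp16, FDR 2.3e-05), 0.74 ± 0.14 (Dusp5, FDR 1.7e-05), 0.67 ± 0.14 (Dusp10, FDR 1.9e-04), 0.60 ± 0.14 (Dusp6, FDR 6.1e-04) and 0.59 ± 0.14 (Dusp1, FDR 9.7e-04). In each of these peaks all 3 (+)-JQ1 libraries were above all 3 unstimulated libraries. The peaks were picked as called higher in this comparison, so that the separation adds no support. The share of promoter-class peaks that separate in this way was not examined. These calls moved with the scaling. With total counts 3 peaks were higher and 39 lower, and with loess offsets 2 were higher and 7 lower, while the values at Dusp6 and Dusp10 became -0.035 and -0.095. The number of lower peaks was 4 without unstimulated replicate 1, 5 without (+)-JQ1 replicate 1 and 6 without (+)-JQ1 replicate 2 or 3. Promoter-class counts made up 48.5% to 51.1% of the (+)-JQ1 libraries and 40.8% to 45.5% of the unstimulated ones, and their part in these values was not tested.

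IL-10 alone raised 8 member peaks (4.42%) and lowered 5 (2.76%), where 5.16% and 3.5% of all tested peaks were called. Both shares were thus near the background. Dusp16 held 4 of the higher peaks, 6.67% of its 60. Among them was the promoter-class peak chr6:134650240-134651335 in Loh12cr1 (log2 fold-change 0.75 ± 0.14, FDR 1.2e-04). Its levels were 28.4, 29.8 and 27.9 CPM against 15.1, 14.7 and 21.4 CPM. Promoter-class counts made up 46.2% to 46.7% of the IL-10 libraries and 40.8% to 45.5% of the unstimulated ones. Their part in this value was not tested. At chr6:134659290-134662430 IL-10 alone gave 5.55 ± 1.29 CPM against 4.14 ± 0.705 CPM, which was not called. With total counts 2 peaks were higher and 14 lower, and with loess offsets 1 was higher and 2 were lower. Without unstimulated replicate 1 there were 4 higher and 0 lower peaks, and without unstimulated replicate 3 there were 18 and 10. The number of lower peaks was 1 without unstimulated replicate 2, and 1, 3 and 0 without IL-10 replicate 1, 2 and 3.

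Whether the effect of a treatment differed with LPS was tested by interaction terms. For IL-10 24 member peaks were called, 16 positive and 8 negative, where 7.91% of all tested peaks were called in either direction, 2.01% positive and 5.9% negative. With total counts there were 36 positive and 4 negative member peaks, and 70.3% of the calls over all peaks were positive. With loess offsets there were 14 and 1. Of the 16 positive ones in the main fit 13 lay at Dusp16 and 3 at Dusp1. The largest among the regions named above was at chr17:26635508-26638466 of Dusp1, at 1.75 ± 0.24 (FDR 1.8e-07). The negative ones included the promoter-class peaks of Dusp2 (-0.94), Dusp10 (-0.95), Dusp16 (-0.73) and Dusp5 (-0.66), and 16.9% of all promoter-class peaks were called negative and 1.4% positive. For (+)-JQ1 9 member peaks were called, 5 positive and 4 negative, where 3.84% of all tested peaks were called, 0.649% positive and 3.19% negative. The total was thus near the background. The 4 negative ones lay at Dusp16. With total counts there were 7 positive and 1 negative member peaks, and 71.8% of the calls over all peaks were positive, and with loess offsets there were 3 and 0. Without unstimulated replicate 3 there were 37 calls for IL-10 and 19 for (+)-JQ1. The 9 calls for (+)-JQ1 fell to between 0 and 5 without unstimulated replicate 1 or 2, (+)-JQ1 replicate 2 or 3, LPS replicate 1 or 2, or LPS + (+)-JQ1 replicate 2 or 3.

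Levels were compared between members per kb of peak. In unstimulated cells the promoter-class peaks ranked from Dusp10 (43.7 ± 12.8 CPM per kb) through Dusp5 (33.5 ± 5.66), Dusp1 (29.6 ± 8.44), Dusp2 (24.4 ± 4.97), Dusp6 (20.9 ± 4.3), Dusp16 (19.9 ± 4.86) and Dusp8 (10.9 ± 2.44) to Dusp4 (3.21 ± 0.284). Neighbours from Dusp10 to Dusp16 lay within their spread, and Dusp8 and Dusp4 lay below. With LPS Dusp2 rose to 54.7 ± 4.6 CPM per kb, next to Dusp10 at 58.9 ± 6.07 and above Dusp5 at 44.5 ± 5.39. No promoter-class peak covered the annotated gene TSS of Dusp4, Dusp1 or Dusp10. Their values are from the nearest promoter-class peaks, whose edges lie 973 bp (Dusp4), 200 bp (Dusp1) and 20507 bp (Dusp10) away. At Dusp4 a distal-class peak over an exon, chr8:35870718-35871867, lies nearer, with its middle 0.941 kb from the TSS against 2.076 kb. The peaks also differ in width, with 3445 bp at Dusp8 and 2205 bp at Dusp4 against 963 bp at Dusp5. The ranking is thus of these peaks and not of the promoters as such.

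**Figure D4:**
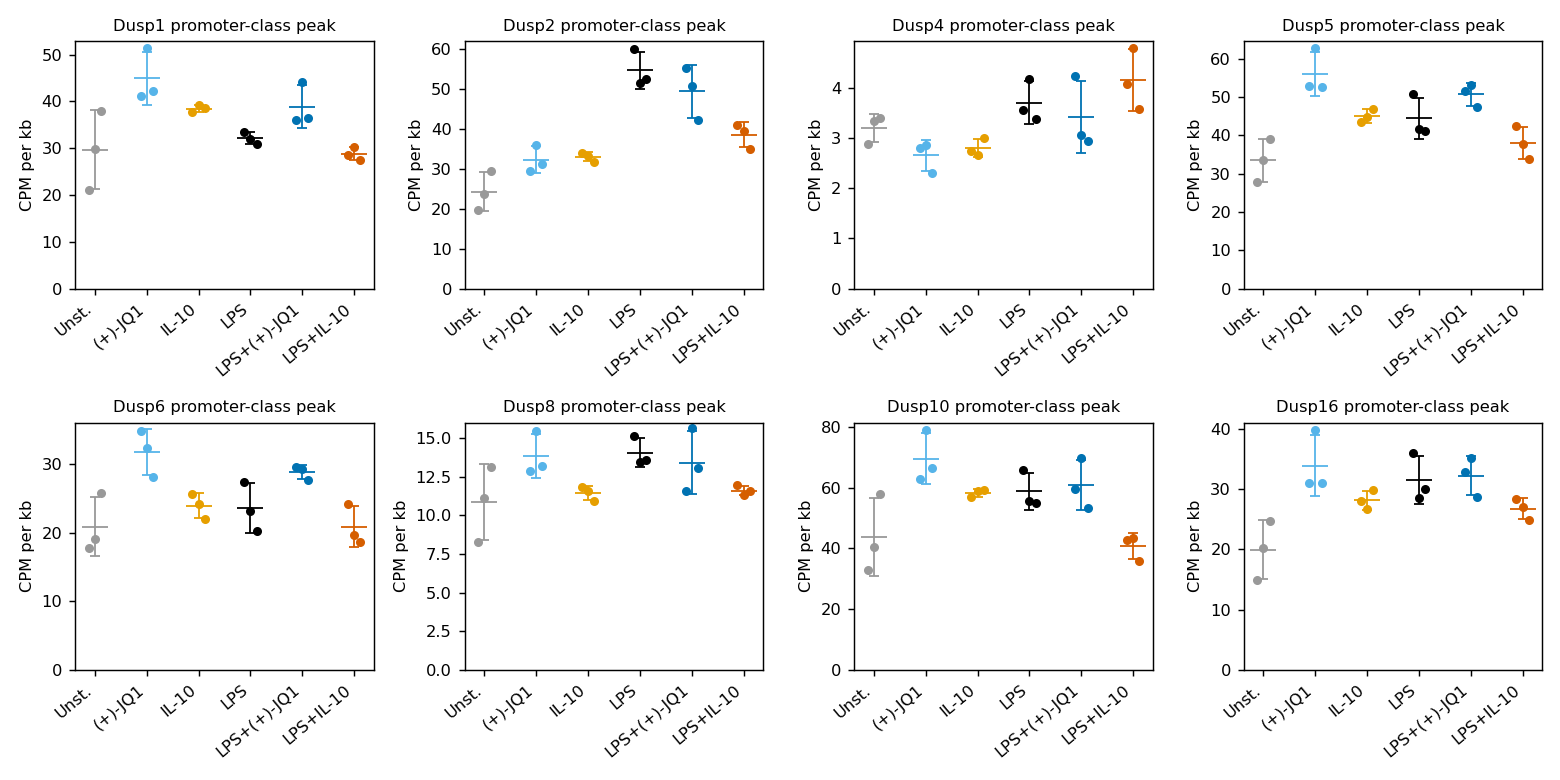
Accessibility of the promoter-class peak of each gene in CPM per kb of peak (vertical) in the 6 groups, with 1 point per library and the mean ± SD (bars, n = 3). Dusp2 was highest with LPS, at 54.7 CPM per kb, whereas Dusp1, Dusp5, Dusp6, Dusp10 and Dusp16 had their highest mean with (+)-JQ1 alone, and the vertical scales differ between panels.

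The promoter-class peak most like each member's was sought among 18013 others by Pearson's r of log2 CPM over the 18 libraries, which share scaling and promoter content. These lay at Adck5 for Dusp1 (r = 0.97), Agrn for Dusp2 (0.98), Isg20l2 for Dusp5 (0.99), Tspan31 for Dusp6 (0.95), Trim25 for Dusp8 (0.94), Lysmd4 for Dusp10 (0.99) and Ppp2r5b for Dusp16 (0.98). For Dusp4 it lay 2745 bp from the start of Pfkl (0.87).

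Other genes of the MAP kinase pathway were examined by the same window rule, 29 genes with 650 tested peaks. They include the MAP kinases on which these phosphatases act, upstream kinases, downstream kinases and further phosphatases. LPS raised 78 of these peaks (12%) and lowered 66 (10.2%), near the 11.7% and 10.2% of all peaks. At the 9 MAP kinases alone, LPS raised 8 of 149 peaks (5.37%) and lowered 17 (11.4%). The kinases downstream of p38, Mapkapk2, Mapkapk3 and Mapkapk5, held 37 of the 78 in 88 peaks. Mapkapk2, which stabilizes cytokine mRNAs through its substrates, rose at 27 of 38 peaks. Its lead peak, chr1:132935302-132936796 (log2 fold-change 2.12 ± 0.19, FDR 2.9e-17), lies between Mapkapk2 and Il10, the gene disrupted in these mice. Map3k1, an upstream kinase of JNK, fell at 17 of 35 peaks and rose at 3.

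LPS + IL-10 raised 44 pathway peaks over LPS (6.77%) and lowered 21 (3.23%), where 4.26% and 4.51% of all peaks were called. At the 9 MAP kinases, 19 of 149 peaks were higher (12.75%) and 5 were lower (3.36%). Mapkapk3 was lower at 9 of 36 peaks, and Map3k11 and Mapk3, the gene of an ERK, were higher at 5 peaks each. LPS + (+)-JQ1 raised 12 (1.85%) and lowered 5 (0.769%), where 1.74% and 3.49% of all peaks were called. Dusp7 and Dusp9, further phosphatases of MAP kinases, held 26 peaks. LPS against unstimulated raised 3 of these (11.5%) and lowered 1 (3.85%), where 11.7% and 10.2% of all tested peaks were called.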

How the data were processed

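ATAC-seq libraries of 18 BMDM cultures were analysed. Per the labels and the study's methods, the authors aligned reads to mm9 with Bowtie2, called peaks in each library with MACS2, merged them and classed them as promoter or distal with ChIPseeker; the deposited values are raw counts per peak, with no normalization or pooling, and the counting tool is not given in the sources used here. Counts cover peaks only, so that reads outside them were not examined. The union table holds 6 columns that match no described sample and were not used. The promoter and distal tables repeat the union counts.

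The members and lists were chosen with earlier results of these data known, and the STAT motif and printed regions after values were seen. Peaks passing filterByExpr were scaled by TMM and fitted with edgeR 4.0.16 (R 4.3.3, quasi-likelihood, all 6 groups, no block); calls were made as stated in the results, at 0.05 for the FDR and 0.5 for the size of the log2 fold-change. The model was tested on simulated data. DESeq2 1.42.0, other scalings, filters, windows, thresholds, a replicate block, the lane and leaving out replicates or single libraries were alternatives. Named for each gene were the promoter-class peak over or nearest to its TSS and the called peak of smallest FDR in each comparison of LPS, LPS + (+)-JQ1 and LPS + IL-10; other regions were named after values were seen.

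The series is described as matched samples from 3 mice, but no label says that a replicate number marks a mouse, so that replicates were not paired in the main fit. Replicates 1 and 3 were run in lanes 5 and 6, and replicate 2 in lane 5 without and lane 6 with LPS. Intervals and p-values cover the spread between these libraries, and coordinates are as deposited. Some single genes of the marker and pathway lists are not reported here.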

Additional observations from a re-analysis of the deposited data

Results flagged for a closer look

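The effect of a treatment differed with LPS, by the interaction terms of edgeR, at 24 of the 181 member peaks for IL-10 and at 9 for (+)-JQ1, where 7.91% and 3.84% of all tested peaks were called. The second share is near the background. Values are the log2 change with the treatment in LPS-treated cells less that in unstimulated cells.

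For IL-10, the term was positive at both 3′ regions of Dusp1, at 1.75 (chr17:26635508-26638466) and 1.13 (chr17:26641679-26643213), and at both 3′ regions of Dusp16, at 1.07 (chr6:134659290-134662430) and 0.86 (chr6:134662468-134667567). It was negative, as at 16.9% of all promoter-class peaks, at those of Dusp2 (-0.94), Dusp10 (-0.95), Dusp16 (-0.73) and Dusp5 (-0.66), at the Loh12cr1 intron peak in the Dusp16 window (-0.84), and at the Dusp10 intron peak chr1:185872607-185873423 (-1.22).

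For (+)-JQ1, the term was 0.85 and 0.86 at the same regions of Dusp1, 1.41 at chr8:35892744-35894251 in the Dusp4 window, -0.86 at chr6:134659290-134662430, -0.77 at the Loh12cr1 intron peak and -0.73 at the Dusp16 promoter peak. The number of these calls for (+)-JQ1 was 0 without LPS replicate 1, 19 without unstimulated replicate 3 and 1 without unstimulated replicate 2.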

How the results depend on the processing

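Below, counts are of member peaks, given as higher and lower. Libraries that share a replicate number deviated from their group means with a mean correlation of 0.006 over 45 pairs, against -0.003 over 90 others, which does not show a pairing. A replicate block gave 40 and 12 for LPS, 5 and 14 for LPS + (+)-JQ1 against LPS, and 32 and 4 for LPS + IL-10 against LPS. It moved no count by over 1.5 times, nor did RLE size factors, the lane or no filter. The cause of the following shifts was not tested, except that narrower windows hold fewer peaks.

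Total counts gave 26 and 27 (LPS), 3 and 39 ((+)-JQ1 alone), 2 and 14 (IL-10 alone), 2 lower (LPS + IL-10 against LPS), 3 higher (LPS + (+)-JQ1 against LPS + IL-10) and 40 interactions with IL-10. Loess offsets gave 2 and 7 ((+)-JQ1 alone), 1 and 2 (IL-10 alone), 3 higher (LPS + (+)-JQ1 against LPS), 2 lower (LPS + IL-10 against LPS), 3 higher (LPS + (+)-JQ1 against LPS + IL-10), and 3 and 15 interactions with (+)-JQ1 and IL-10; the (+)-JQ1 values at the promoter peaks of Dusp6 and Dusp10 turned to -0.035 and -0.095. DESeq2 gave 7 lower (LPS) and 2 lower (IL-10 alone). Fitting only the groups compared gave 3 lower (IL-10 alone) and 3 interactions with (+)-JQ1. At least 10 counts in every library gave 10 higher ((+)-JQ1 alone) and 4 and 10 (IL-10 alone).

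The gene body alone gave 14 and 3 (LPS), 1 higher (LPS + (+)-JQ1 against LPS), 18 higher (LPS + IL-10 against LPS), 5 and 7 ((+)-JQ1 alone), 2 and 3 (IL-10 alone), 3 higher (LPS + (+)-JQ1 against LPS + IL-10) and 3 interactions with (+)-JQ1. With 10 kb on each side there were 7 lower (LPS) and 9 higher ((+)-JQ1 alone). Within 25 kb of the TSS there were 25 and 6 (LPS), 3 and 4 (LPS + (+)-JQ1 against LPS), 10 and 2 (LPS + IL-10 against LPS), 5 lower ((+)-JQ1 alone), 5 and 3 (IL-10 alone), 1 and 16 (LPS + (+)-JQ1 against LPS + IL-10), and 5 and 9 interactions. An FDR under 0.01 gave 3 lower (LPS), 3 lower ((+)-JQ1 alone), 5 and 0 (IL-10 alone), 3 higher (LPS + (+)-JQ1 against LPS + IL-10), and 0 and 15 interactions. No fold threshold gave 16 higher (IL-10 alone) and 10 higher (LPS + (+)-JQ1 against LPS + IL-10).

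Leaving out a replicate number or, as chosen after seeing the data, a single library gave 29 to 42 higher and 4 to 12 lower (LPS), 0 to 6 and 6 to 15 (LPS + (+)-JQ1 against LPS), 18 to 29 and 0 to 4 (LPS + IL-10 against LPS), 3 to 21 and 2 to 14 ((+)-JQ1 alone), 2 to 18 and 0 to 10 (IL-10 alone), 1 to 7 and 30 to 48 (LPS + (+)-JQ1 against LPS + IL-10), and 0 to 19 and 8 to 37 interactions with (+)-JQ1 and IL-10. Weak peaks limit precision: 38 member peaks had a mean under 20 counts.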
